A study of Mus musculus with 8 samples.

Results

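The genes described here are the 3 inducible catalytic subunits of the immunoproteasome (Psmb8, Psmb9 and Psmb10), the 2 subunits of its activator PA28 (Psme1 and Psme2), and 5 genes that bring peptides to MHC class I molecules in the endoplasmic reticulum (Tap1, Tap2, Tapbp, Tapbpl and Erap1). They were taken by gene name, and all 10 were found among the 55359 genes of the tables. RNA sequencing had been done on 8 samples of thymocytes from mice 5 weeks of age. The cells were sorted as double positive, carrying both CD4 and CD8, with absent to intermediate surface TCR beta. Every sample carried the LSL-Sting1-N153S allele, a coding sequence of STING with the gain-of-function change N153S behind a stop cassette that Cre recombinase removes. The 4 controls (LSL-Sting1-N153S/+, replicates 1 to 4) had no Cre, while the 4 Lck-cre samples (LSL-Sting1-N153S;Lck-cre, replicates 5 to 8) carried Cre under the Lck promoter, which is active from T cell progenitors onward. In each group 1 sample was from a female (replicates 1 and 5) and the other 3 from males. Nothing in the labels ties a sample to an animal of its own, so p-values reflect only how far these samples spread, which may be technical.

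The proteasome is a barrel of stacked rings that cuts proteins into peptides. In cells exposed to interferons, and in many lymphocytes at rest, its catalytic subunits Psmb5, Psmb6 and Psmb7 are replaced during assembly by Psmb8, Psmb9 and Psmb10, which favours peptides with ends that fit class I molecules. PA28, a ring of Psme1 and Psme2 products, opens the barrel. The Tap1 and Tap2 proteins form the transporter that carries peptides into the endoplasmic reticulum, tapasin (Tapbp) and its relative TAPBPR (Tapbpl) help load them and edit their choice, and Erap1 trims their leading ends. Several genes of this pathway are known targets of interferon regulatory factors, and some of NLRC5.

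Expression is given as FPKM, a fragment count corrected for the length of the gene and the size of the library, a scale on which levels of different genes can be compared. Genes with at least 1 FPKM in at least 4 samples, 12337 in all, were tested together on log2(FPKM + 0.5) with limma with a term for sex, and a gene was called changed at a Benjamini-Hochberg adjusted p under 0.05. All 10 genes were tested, and in every sample each was far above this minimum, the lowest value being 9.44 FPKM for Erap1. The values are not counts, and relative depth was followed through the coverage column: the commonest ratio of coverage to FPKM ranged from 7.53 to 7.89 over the controls, and from 7.65 to 7.86 over the Lck-cre samples. Sting1 transcripts, the check of the genotype, lay at 13.1 ± 1.7 FPKM in the controls and at 167 ± 71.2 FPKM in Lck-cre (SD, n = 4 each). FPKM values do not tell the N153S allele from the wild type.

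In Lck-cre double positive thymocytes 6 of the 10 genes rose and none fell: Psme2, Psmb10, Psmb9, Erap1, Tap1 and Psme1, in order of size, by 1.19-fold to 1.49-fold. Of all tested genes, 15.4% were called higher and 25.8% were called in either direction, the background for this count. The median log2 change was 0.26 over the 10 genes and 0.01 over all tested genes. In 5 of the 10 every Lck-cre sample lay above every control, which held for 17.1% of tested genes, while 12.3% had every Lck-cre sample below every control. Psmb8, Tapbp, Tapbpl and Tap2 were not called. With TPM values, which are scaled to the same sum in every sample, 5 of 10 rose, against 10.5% of tested genes called higher and 27.3% called in either direction. FPKM values summed to more in every Lck-cre sample than in any control, and TPM takes that difference out. The median log2 change over the 10 genes was 0.19 with TPM. With FPKM, the number that rose was 2 of 10 without control replicate 1 or without Lck-cre replicate 5, the females. Over all 12337 tested genes the number called higher fell as well, from 1901 to 427 and 419 in these settings.

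**Figure D1:**
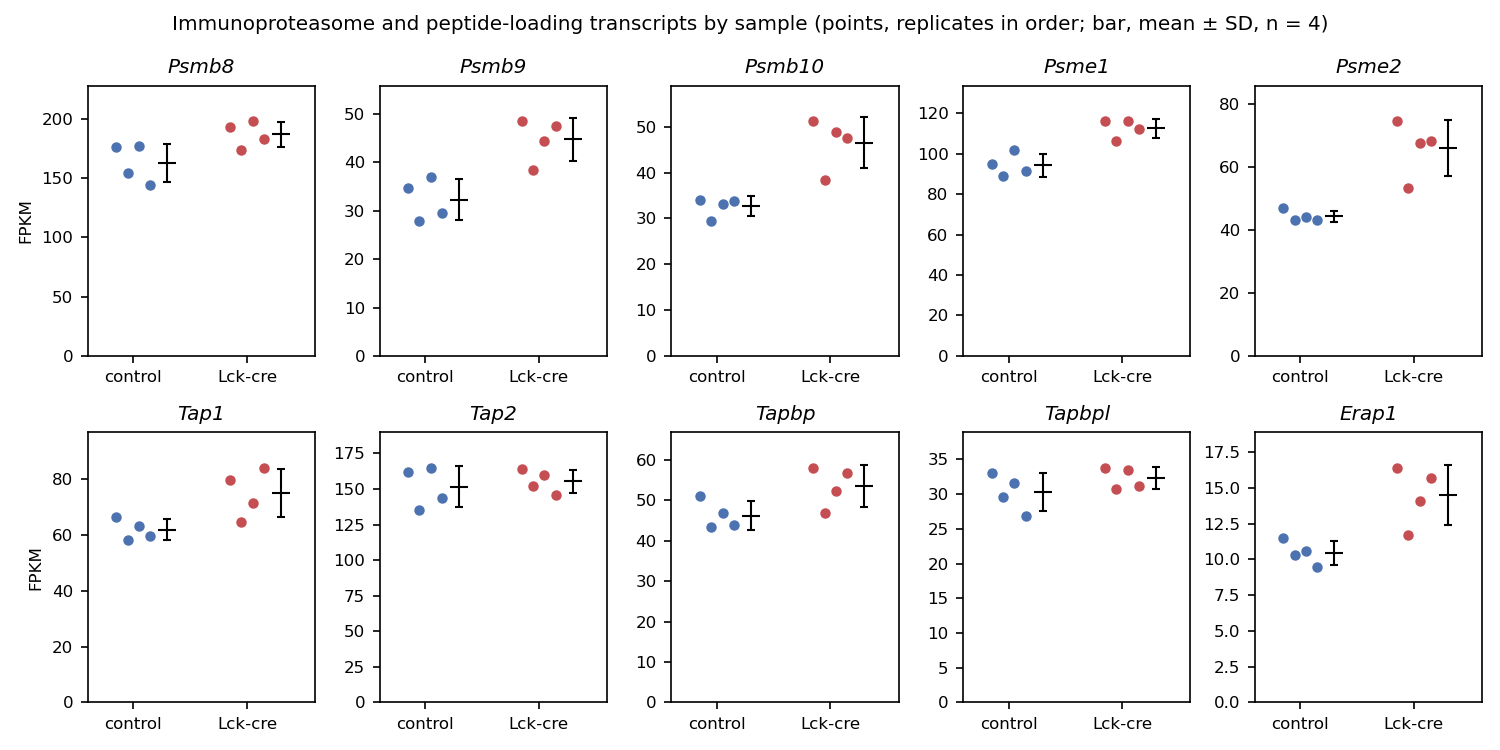
FPKM of each of the 10 genes in the 4 control (blue) and 4 Lck-cre (red) samples. Points are samples in the order of their replicate numbers, and the black mark beside them is the mean with its SD. The groups are separate for Psmb9, Psmb10, Psme1, Psme2 and Erap1, and they overlap for the other 5.

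Tap1 and Psmb9 are shown as sequence because both rose and their RefSeq starts lie back to back across a short stretch. RefSeq promoter windows on GRCm38.p6, from 250 bases before to 50 bases after each start, were found for 8 of the 10 genes, all but Tap2 and Tapbpl. The starts of Tap1, on the plus strand, and Psmb9, on the minus strand, point away from each other. The 225 bases between them (chr17:34187331-34187555, plus strand) are given below. A CCAAT box and a GC box (CCGCCC, which is GGGCGG read on the opposite strand) are in capitals. The other stretches are 30 bases each around the matches to GAAA, any 2 bases and GAAA again, the spacing of interferon regulatory factor sites. They lie at chr14:55578493-55578522 for Psme1 and at chr13:74639839-74639868 for Erap1, both on the plus strand, with the match, read on the opposite strand, in capitals.
Tap1 and Psmb9: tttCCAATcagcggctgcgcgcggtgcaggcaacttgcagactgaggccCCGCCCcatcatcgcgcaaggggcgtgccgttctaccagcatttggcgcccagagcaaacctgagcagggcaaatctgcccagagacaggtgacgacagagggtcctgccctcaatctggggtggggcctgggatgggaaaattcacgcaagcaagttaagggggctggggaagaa
Psme1: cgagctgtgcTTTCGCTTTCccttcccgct
Erap1: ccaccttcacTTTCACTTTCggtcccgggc

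Motifs were looked for on both strands of the 9 windows of these 8 genes and of 32851 RefSeq windows in all. This spaced GAAA pair was found in Erap1, from 4 bases before to 5 bases after the start, and in Psme1, and in 3.44% of all windows. CCAAT was found in Psmb9, Tap1 and Tapbp and in 37.4% of all windows. GGGCGG was found in 6 of the 8 genes (Erap1, Psmb9, Psme1, Psme2, Tap1 and Tapbp) and in 35.7% of all windows. The matches of Tap1 and Psmb9 are the same letters, since their windows overlap, and no match of one motif overlapped that of another. These are matches of letters in one window per start and carry no measurement of binding.

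Among the inducible catalytic subunits, Psmb9 and Psmb10 rose and Psmb8 did not pass the test, although the differences between their changes were not tested. Psmb8 (ENSMUSG00000024338.16), the chymotrypsin-like subunit, had the highest level of the 10 genes. It lay at 176, 154, 177 and 144 FPKM in control replicates 1 to 4 and at 193, 174, 198 and 183 FPKM in Lck-cre replicates 5 to 8, so 1 Lck-cre sample lay within the controls. The means were 163 ± 16.1 and 187 ± 10.4 FPKM (SD, n = 4 each), with a log2 change of 0.21 (SE 0.08, adjusted p = 0.0839 by limma) and a 95% confidence interval of 0.03 to 0.38. Without control replicate 3 it passed (adjusted p = 0.0432 by limma).

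Psmb9 (ENSMUSG00000096727.4), which takes the place of Psmb6, lay at 34.7, 27.9, 37 and 29.5 FPKM in the controls and at 48.5, 38.5, 44.4 and 47.5 FPKM in Lck-cre. The groups did not overlap, although the highest control and the lowest Lck-cre sample were close. The mean of 44.7 ± 4.48 FPKM in Lck-cre was 1.39-fold that of the controls, 32.2 ± 4.29 FPKM (log2 change 0.47, SE 0.10, adjusted p = 0.0137 by limma, n = 4 each). The call ended without control replicate 1 (adjusted p = 0.0574 by limma) and without Lck-cre replicate 5 (0.0579).

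Psmb10 (ENSMUSG00000031897.10), the trypsin-like subunit, stood at nearly the same control level as Psmb9. It lay at 34.1, 29.4, 33.2 and 33.8 FPKM in the controls and at 51.2, 38.4, 48.9 and 47.5 FPKM in Lck-cre, with no overlap and with Lck-cre replicate 6 apart below the other three. Its Lck-cre mean, 46.5 ± 5.61 FPKM, was 1.43-fold the control mean of 32.6 ± 2.18 FPKM (log2 change 0.50, SE 0.09, adjusted p = 0.00932 by limma, n = 4 each). This call held in each of the 18 alternative settings, the stricter threshold of 0.01 and each left-out sample among them.

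Both PA28 subunits rose, by 1.19-fold for Psme1 and 1.49-fold for Psme2, and the difference between these changes was not tested. Psme1 (ENSMUSG00000022216.18), the alpha subunit, lay at 94.7, 88.7, 102 and 91.5 FPKM in the controls and at 116, 106, 116 and 112 FPKM in Lck-cre. Its groups did not overlap, and the means were 94.3 ± 5.79 FPKM in the controls and 113 ± 4.75 FPKM in Lck-cre (log2 change 0.26, SE 0.07, adjusted p = 0.0235 by limma, n = 4 each). The call ended in 8 of 18 settings, among them without control replicates 1, 2 or 4 (adjusted p of 0.0918, 0.0761 and 0.0619 by limma) and without Lck-cre replicates 5 or 7 (0.0912 and 0.0657).

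Psme2 (ENSMUSG00000079197.11), the beta subunit, had the largest fitted change of the 10 genes. The controls were tight at 46.9, 43, 43.9 and 43.2 FPKM, and Lck-cre lay at 74.4, 53.3, 67.4 and 68 FPKM. All Lck-cre samples were higher, replicate 6 by the least, with a log2 change of 0.56 (SE 0.08, adjusted p = 0.0075 by limma) and a 95% confidence interval of 0.37 to 0.75, and the call held in each of the 18 settings. Psme2b, a copy of Psme2 on another chromosome, is listed separately and lay at 11.1 ± 1.01 and 16.1 ± 2.22 FPKM (log2 change 0.52, adjusted p = 0.00942 by limma, n = 4 each). Reads of these similar genes could have been divided either way, so the values of Psme2 are uncertain to that extent.

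Of the 2 chains of the transporter Tap1 was called and Tap2 was not, and their changes were not shown to differ (ratio of Tap1 to Tap2, exact permutation p = 0.0571, adjusted 0.114). Tap1 (ENSMUSG00000037321.18) lay at 66.5, 58.1, 63.4 and 59.8 FPKM in the controls and at 79.8, 64.8, 71.4 and 84.2 FPKM in Lck-cre, where replicate 6 lay within the control range. Mean levels were 62 ± 3.76 FPKM in the controls and 75 ± 8.65 FPKM in Lck-cre, 1.21-fold higher (log2 change 0.27, SE 0.08, adjusted p = 0.0414 by limma, n = 4 each). This call ended in 13 of 18 settings, among them TPM values (adjusted p = 0.0989 by limma), quantile normalization (0.0754), median-of-ratios scaling (0.0543) and the removal of any 1 sample other than Lck-cre replicate 6 (0.0521 to 0.116).

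Tap2 (ENSMUSG00000024339.13) was the second most abundant of the 10 genes, with 162, 135, 165 and 144 FPKM in the controls and 164, 152, 160 and 146 FPKM in Lck-cre. The groups overlapped throughout, at means of 152 ± 14.2 and 155 ± 8.14 FPKM (n = 4 each). The log2 change was 0.04, with a 95% confidence interval of -0.13 to 0.21 (adjusted p = 0.723 by limma), and turned to -0.04 with TPM values (adjusted p = 0.699 by limma). In the files' positions, which name no build, Psmb9, Tap1, Psmb8 and Tap2 follow each other on chromosome 17 from 34400961 to 34435295, in the MHC region, and the first pair was called and the second was not. Psmb9 (34400961 to 34406738) and Tap1 (34406527 to 34416199) share 212 bases there on opposite strands. Without a stated strand setting reads in that overlap cannot be assigned. In RefSeq the starts of Tap1 and Psmb9 lie apart, so the stretch printed above rests on other starts than these spans.

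Neither loading factor passed, and the peptidase did. Tapbp (ENSMUSG00000024308.16), tapasin, lay at 51, 43.3, 46.9 and 43.8 FPKM in the controls and at 58.1, 46.8, 52.3 and 56.9 FPKM in Lck-cre, 3 of the 4 above every control. The log2 change of 0.21 (SE 0.07, 95% confidence interval 0.05 to 0.37) had an adjusted p = 0.058 by limma. Tapbp passed without Lck-cre replicate 6 (log2 change 0.26, adjusted p = 0.0197 by limma). The listed span of Tapbp shares 3422 bases with Zbtb22 on the same strand. Zbtb22 averaged 18.1 FPKM in the controls and 17.9 FPKM in Lck-cre and was not called (adjusted p = 0.919 by limma). The part of Zbtb22 in the value of Tapbp was not tested.

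Tapbpl (ENSMUSG00000038213.8) lay at 33.1, 29.6, 31.6 and 26.9 FPKM in the controls and at 33.8, 30.8, 33.5 and 31.2 FPKM in Lck-cre, with overlap (log2 change 0.09, SE 0.07, adjusted p = 0.316 by limma, n = 4 each). It lies wholly inside the listed span of Vamp1 on the other strand (7928 shared bases on chromosome 6). Vamp1, a vesicle fusion protein, fell from 188 ± 29.1 to 96.6 ± 28.6 FPKM (log2 change -0.99, adjusted p = 0.0109 by limma, n = 4 each), and its part in the value of Tapbpl was not tested.

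Erap1 (ENSMUSG00000021583.8) had the lowest level of the 10 genes, at 11.5, 10.3, 10.6 and 9.44 FPKM in the controls and 16.4, 11.7, 14.1 and 15.7 FPKM in Lck-cre. The groups did not overlap, but Lck-cre replicate 6 lay just above the highest control. Lck-cre averaged 14.5 ± 2.07 FPKM, 1.38-fold the 10.5 ± 0.847 FPKM of the controls (log2 change 0.44, SE 0.09, adjusted p = 0.0137 by limma, n = 4 each). The call ended without control replicate 1 (adjusted p = 0.0602 by limma) and without Lck-cre replicate 5 (0.0611).

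The samples differed within the Lck-cre group in a way that most of the 10 genes shared. Lck-cre replicate 6 was the lowest of its group in 9 of the 10, all but Tap2, and replicate 5 was the highest in 8. The share over all tested genes was not counted. Outside the 10, replicate 6 was the lowest in 3 of 3 class I chains (H2-K1, H2-D1 and B2m). It was also the lowest in 9 of 18 genes of the 19S cap, where replicate 5 was the lowest in 7, and in 1 of 3 constitutive catalytic subunits. The count for replicate 6 was 4 of 6 endoplasmic reticulum chaperones and 4 of 11 structural subunits of the 20S core. For the other activator, inhibitor and assembly genes it was 3 of 8, for peptidases outside the endoplasmic reticulum 3 of 7, and for regulators of class I genes 4 of 9. Averaged over the 10 genes, the log2 level relative to the control mean was 0.41, 0.13, 0.33 and 0.34 in Lck-cre replicates 5 to 8, and -0.09 to 0.10 in the controls. Replicate 6 also had the least Sting1, with 85.4 FPKM against 221, 130 and 232 FPKM in replicates 5, 7 and 8. Replicate 8, with the most Sting1, was the highest of its group in 1 of the 10 genes. In the controls, replicate 2 was the lowest in 7 of the 10 genes and replicate 1 the highest in 6. Without Lck-cre replicate 6, 7 of the 10 genes rose, against 18.0% of all tested genes. That sample was singled out by its low values in these same genes, so the higher count is no separate support. Leaving out any 1 other sample gave 2 to 6 of the 10.

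**Figure D2:**
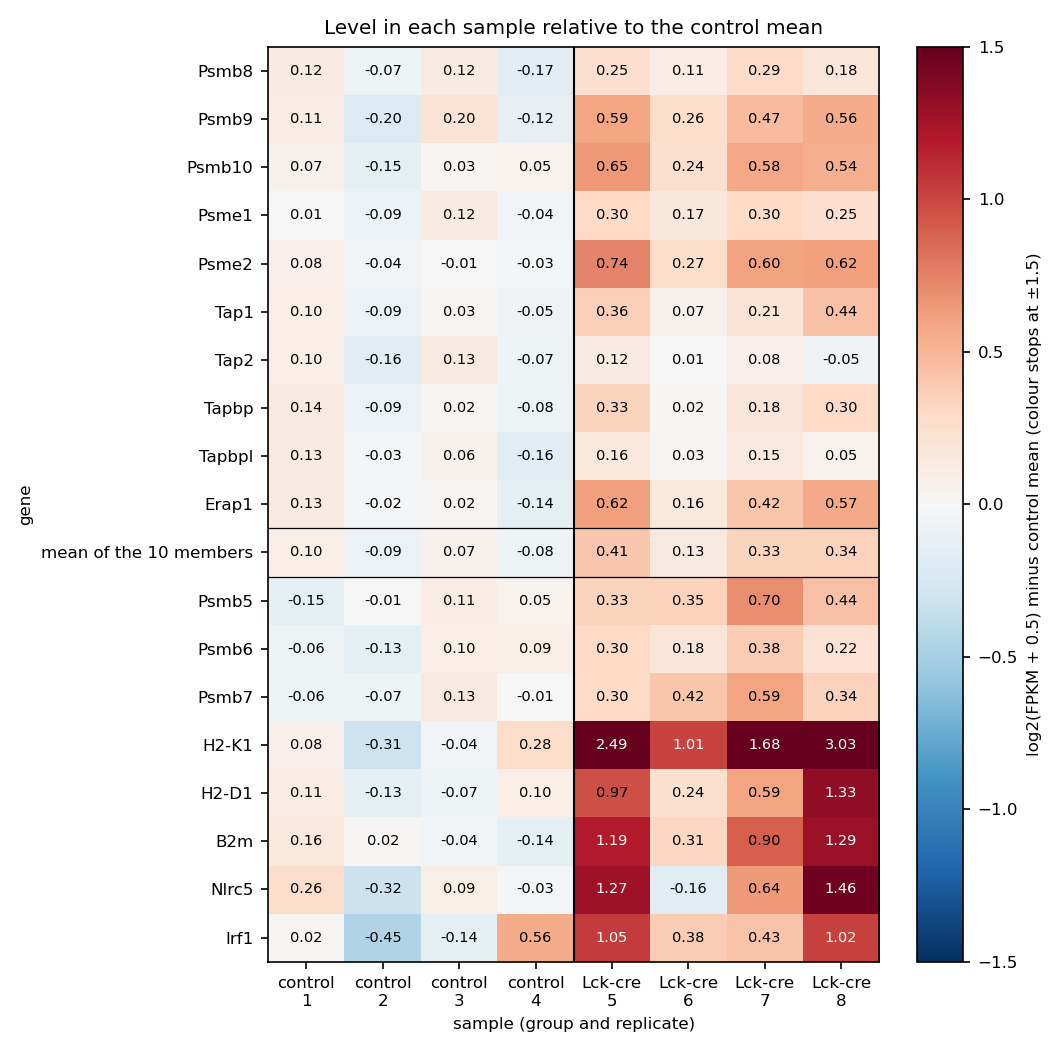
Level of each gene in each sample as log2(FPKM + 0.5) minus the mean of the controls, for the 10 genes, their mean, the 3 constitutive catalytic subunits, 3 class I chains and 2 regulators. Red is higher and blue lower than the control mean, with colour limited at 1.5 and the value written in each cell. Lck-cre replicate 6 is the palest of its group for most of the 10 genes, at 0.13 on average, while Psmb5 and Psmb7 are lowest in replicate 5.

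The constitutive subunits whose places are taken rose as well, so the question was whether the balance within each pair moved. Psmb5 rose 1.38-fold from 81.7 ± 6.14 to 112 ± 13.9 FPKM (log2 change 0.45, adjusted p = 0.0093 by limma, n = 4 each). Psmb7 rose 1.34-fold from 85.7 ± 5.52 to 114 ± 10.5 FPKM (log2 change 0.41, adjusted p = 0.00947 by limma, n = 4 each). Psmb6 rose 1.2-fold from 115 ± 9.14 to 139 ± 8.49 FPKM (log2 change 0.27, adjusted p = 0.0341 by limma), a call that ended with TPM values (0.0704). Their order among the Lck-cre samples was another one: all 3 were highest in replicate 7, which was the highest in 1 of the 10 inducible and loading genes.

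Ratios of FPKM within a sample do not depend on library scaling, and 6 were compared by an exact two-sided permutation test over the 70 assignments of samples, whose smallest p is 0.0286. None passed after adjustment over the 6 ratios, but no ratio could pass unless at least 4 of them separated the groups fully, so a miss here says little about any 1 ratio. Psmb8 to Psmb5 was 2.39, 1.9, 2.01 and 1.71 in the controls and 1.88, 1.68, 1.49 and 1.65 in Lck-cre, 3 of 4 below every control (log2 difference -0.25, exact p = 0.0571, adjusted 0.114). This was the 1 ratio with a lower mean in Lck-cre. Psmb9 to Psmb6 had means of 0.281 ± 0.0338 and 0.323 ± 0.0298 (log2 difference 0.21, exact p = 0.171, adjusted 0.24, n = 4 each). Psmb10 to Psmb7 had means of 0.381 ± 0.0293 and 0.409 ± 0.0659 (log2 difference 0.09, exact p = 0.543, n = 4 each), with 2 Lck-cre samples above and 1 below every control.

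For the activators the reference was Psme3, the gene of PA28 gamma, a nuclear ring of its own. Psme3 itself averaged 66.6 ± 2.28 FPKM in the controls and 73.2 ± 2.71 FPKM in Lck-cre, and was not called (adjusted p = 0.0976 by limma, n = 4 each). Psme2 to Psme3 was 0.73, 0.637, 0.672 and 0.623 in the controls and 1.04, 0.758, 0.908 and 0.89 in Lck-cre, the 1 ratio whose groups did not overlap (log2 difference 0.43, exact p = 0.0286, the smallest possible, adjusted 0.114). Psme1 to Psme3 had means of 1.42 ± 0.122 and 1.54 ± 0.0638 (exact p = 0.2, n = 4 each). Tap1 to Tap2 was 0.411, 0.429, 0.384 and 0.416 in the controls and 0.487, 0.427, 0.446 and 0.577 in Lck-cre (log2 difference 0.23, exact p = 0.0571, adjusted 0.114). In every sample Tap2 exceeded Tap1 and Psmb8 exceeded Psmb5, while Psmb6 exceeded Psmb9 and Psmb7 exceeded Psmb10.

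**Figure D3:**
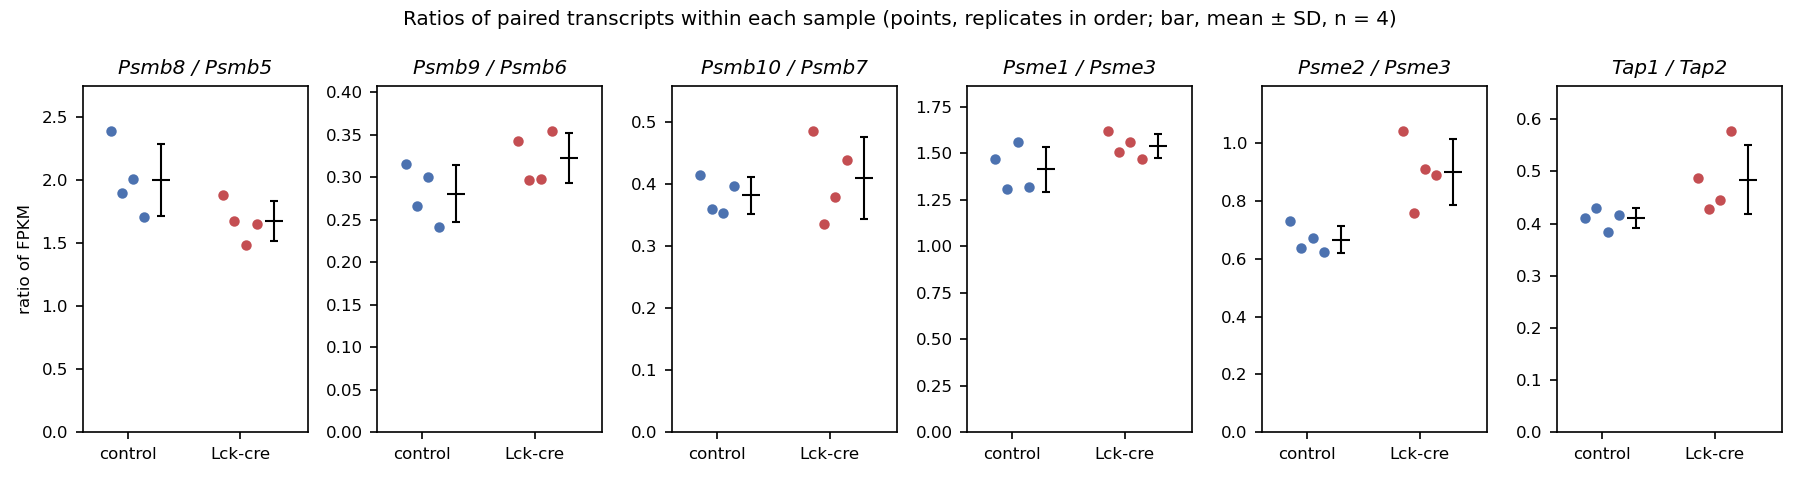
Ratio of the FPKM values of 2 genes within each sample, for the 3 pairs of inducible and constitutive subunits, the 2 PA28 genes over Psme3, and Tap1 over Tap2, with 4 control (blue) and 4 Lck-cre (red) samples and the mean with its SD in black. The groups are separate only for Psme2 over Psme3, and Psmb8 over Psmb5 is the only ratio with a lower mean in Lck-cre (2 against 1.68).

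Other proteasome genes were counted by list. Of 11 structural subunits of the 20S core 8 rose and 0 fell by limma, with a median log2 change of 0.29, and 5 rose with TPM values. Psma5 (44.6 ± 2.66 to 58.2 ± 2.7 FPKM) and Psma1 (67.2 ± 3.33 to 82 ± 4.57 FPKM), both ring subunits, had the smallest adjusted p (0.00817 and 0.0156 by limma, n = 4 each). Of 18 genes of the 19S cap, which unfolds substrates, 10 rose and 0 fell by limma (median 0.20), and 5 rose with TPM values, with Psmc2 and Psmc1, 2 of its ATPases, at log2 changes of 0.34 and 0.31. Of 8 other activator, inhibitor and assembly genes 2 rose and 0 fell by limma: Psmg4, an assembly chaperone, rose 1.56-fold from 13.4 ± 0.663 to 21 ± 1.22 FPKM, and Psmg1 from 16.3 ± 1.25 to 20.4 ± 3.02 FPKM (n = 4 each). Psmg1 was not called with TPM values (adjusted p = 0.0933 by limma).

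Among 6 endoplasmic reticulum chaperones of the loading pathway 3 rose and 0 fell by limma. Calreticulin (Calr) rose 1.35-fold from 133 ± 8.72 to 180 ± 14.7 FPKM, and Pdia3, the disulfide partner of tapasin, rose 1.24-fold from 83.7 ± 3.72 to 104 ± 4.75 FPKM (n = 4 each). Calnexin (Canx) rose from 59 ± 4.61 to 71.5 ± 4.7 FPKM, a call that ended with TPM values (adjusted p = 0.0673 by limma). All 3 class I chains looked at rose. The fitted log2 changes of H2-K1, B2m and H2-D1 were 2.05, 0.92 and 0.78 (adjusted p of 0.0093, 0.0104 and 0.0219 by limma). Each estimate was above the largest of the 10 genes, 0.56 for Psme2, but these differences were not tested. The 95% confidence intervals of B2m (0.53 to 1.32) and H2-D1 (0.34 to 1.23) overlapped that of Psme2 (0.37 to 0.75). That of H2-K1 (1.23 to 2.87) did not.

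Of 7 peptidases outside the endoplasmic reticulum 3 rose and 1 fell by limma, while 2 rose and 2 fell with TPM values. Lap3, leucine aminopeptidase, rose 2.55-fold from 2.53 ± 0.394 to 6.44 ± 1.54 FPKM, and Thop1, a cytosolic peptidase that destroys antigenic peptides, rose 1.8-fold from 2.8 ± 0.398 to 5.04 ± 0.823 FPKM (n = 4 each). Blmh rose by a log2 change of 0.26, which did not pass with TPM values (adjusted p = 0.0764 by limma). Lnpep, the endosomal relative of Erap1, fell from 17.9 ± 2.36 to 13.7 ± 1.97 FPKM (log2 change -0.38, adjusted p = 0.0474 by limma). Erap1 and Lnpep thus moved in opposite directions.

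Of 9 regulators of class I genes 2 rose and 0 fell by limma, while 1 rose and 1 fell with TPM values. Irf1, a transcription factor induced by interferons, lay at 35.6, 25.5, 31.8 and 51.8 FPKM in the controls and at 72.8, 45.7, 47.2 and 71.6 FPKM in Lck-cre, with overlap (log2 change 0.72, SE 0.22, adjusted p = 0.0415 by limma). That call ended with TPM values (0.0574). Irf8 rose from 1.9 ± 0.367 to 3.12 ± 0.492 FPKM (n = 4 each). Nlrc5, the transactivator of class I promoters, averaged 1.44 ± 0.322 FPKM in the controls and 3.16 ± 1.61 FPKM in Lck-cre and did not pass (adjusted p = 0.0696 by limma, n = 4 each). Among the Lck-cre samples 4 of the 9 regulators, Nlrc5 included, were lowest in replicate 6, and another 4 were lowest in replicate 7. Of the 10 genes, 9 were lowest in replicate 6 and 0 in replicate 7.

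**Figure D4:**
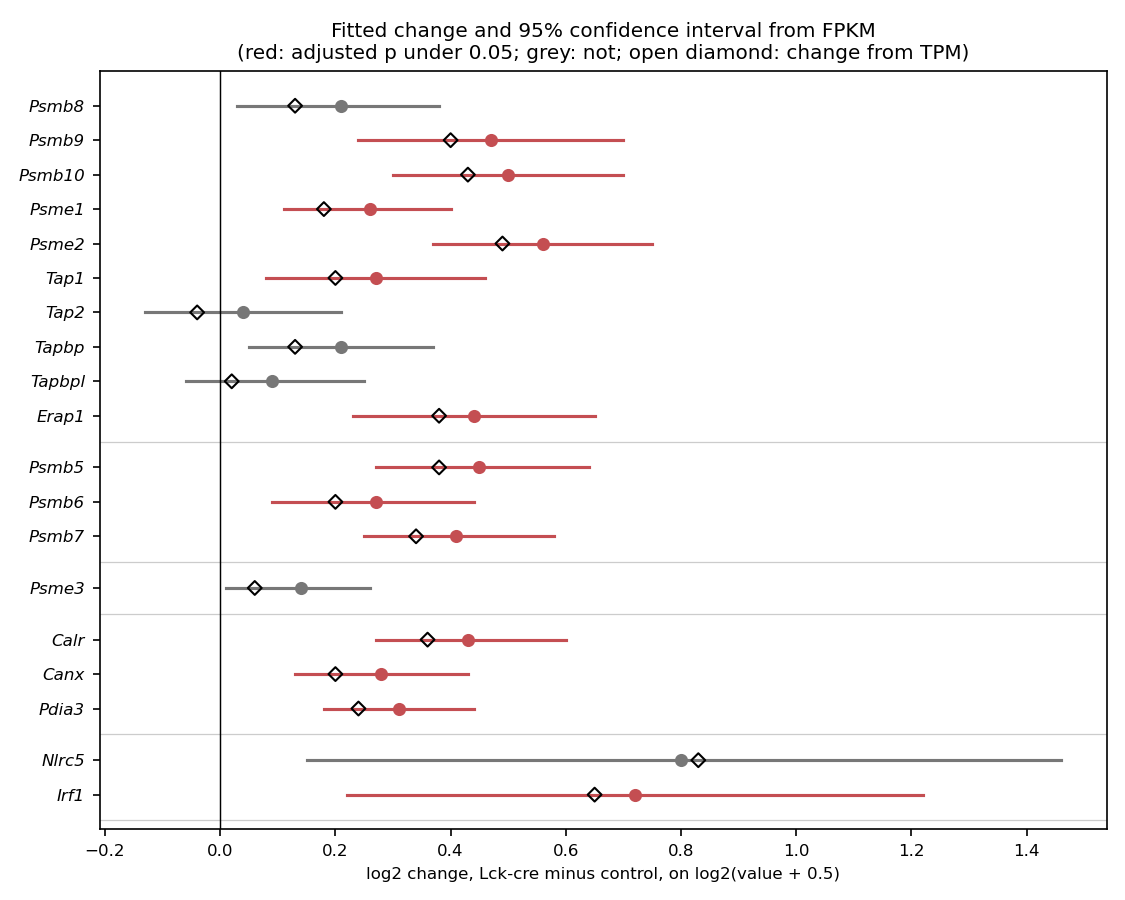
Fitted log2 change between Lck-cre and control on log2(value + 0.5), with its 95% confidence interval from limma on FPKM, for the 10 genes, the 3 constitutive catalytic subunits, Psme3, 3 chaperones and 2 regulators. Red marks an adjusted p under 0.05, grey the others, and open diamonds the change from TPM values, which lies below that from FPKM for every gene drawn but Nlrc5. Psme2 is the highest of the 10 genes at 0.56 and Tap2 the lowest at 0.04.

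The genes whose pattern over the 8 samples lay closest to the average of the 10 were Lactb, Asl, Ift140, Ltv1 and A930005H10Rik. Closeness was the root mean square difference between log2 levels relative to the control mean, taken over the 8870 other tested genes with a mean of at least 5 FPKM. It was 0.0393 for Lactb and 0.051 for A930005H10Rik, the fifth. Lactb lay at 4.96 ± 0.262 and 6.29 ± 0.565 FPKM, and Asl, an enzyme of arginine metabolism, at 8.12 ± 0.478 and 10.3 ± 0.99 FPKM (n = 4 each).

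The label of the cells was checked with marker genes. The double positive markers Cd4, Cd8a, Cd8b1, Rag1, Rag2, Dntt and Cd1d1 summed to 4749 to 4999 FPKM in the controls and 3574 to 4719 FPKM in Lck-cre, and 4 of the 7 fell by limma. Cells of other types can carry much immunoproteasome RNA, so their markers stand beside the results. All 8 dendritic cell markers stayed under 1 FPKM in all samples, with sums of 0.197 to 0.287 FPKM in the controls and 0.516 to 1.77 FPKM in Lck-cre. Of 8 macrophage markers 7 stayed under 1 FPKM, the exception being Cd68, with sums of 5.5 to 6.76 and 7.99 to 14.3 FPKM. Cd68, the 1 macrophage marker tested, rose from 5.74 ± 0.497 to 8.5 ± 1.95 FPKM (adjusted p = 0.0304 by limma, n = 4 each). Of 11 markers of thymic epithelium 8 stayed under 1 FPKM, with sums of 10.9 to 12.7 and 10.6 to 16.3 FPKM. Psmb11, the catalytic subunit of the thymoproteasome of cortical epithelium, lay at 0.0508 ± 0.0206 and 0.128 ± 0.0554 FPKM (SD, n = 4 each).

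B cell markers summed to 12.4 to 16.9 FPKM in the controls and 7.86 to 15.5 FPKM in Lck-cre, with 5 of 6 under 1 FPKM throughout. Of the 6 NK cell markers 5 stayed under 1 FPKM, and Ncr1 was listed at 0 in all samples. Gzma made most of the sums of 16.4 to 26.7 and 35 to 89.8 FPKM. Gzma, the 1 NK cell marker tested, rose 3.12-fold from 21 ± 4.99 to 65.5 ± 23.8 FPKM (adjusted p = 0.0075 by limma, n = 4 each). Erythroid markers, all 6 under 1 FPKM, summed to at most 0.35 FPKM. Mature T cell markers summed to 71.4 to 75.8 and 61.1 to 72.6 FPKM, and 1 of the 3 tested rose. Those of double negative thymocytes summed to 45 to 57.1 and 58.6 to 87 FPKM, and 2 of the 4 tested rose. The part of other cells in the changes of the 10 genes was not tested. In bulk RNA, fewer cells of a type and less RNA per cell cannot be told apart.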

How the data were processed

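RNA of sorted thymocytes was sequenced in 4 control and 4 Lck-cre samples. The submitters' processing notes name HISAT and Bowtie2. Not given in the sources used here: the roles of these tools, the build, the annotation, the quantifier, the strandedness. Each of 8 deposited tables gives FPKM, TPM and mean coverage per base, all computed by the authors; FPKM is scaled by gene length and library size, TPM has the same sum in every sample, and the deposited coverage is not scaled by depth. There are no counts, so the design's fallback, limma on FPKM, was used and depth is unknown.

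Entries sharing a gene ID were summed. limma 3.58.1 (R 4.3.3) was fitted with terms for sex and genotype, a mean-variance trend and two-sided tests on log2(FPKM + 0.5), which understates changes of low genes. Permutation tests used SciPy 1.17.1 under Python 3.11.15. SDs are over 4 samples and folds are ratios of mean FPKM. Data of 12337 genes were simulated with the spread of these samples, 50 genes being raised at each size of change. The test of Lck-cre against control recovered 38% of genes raised by a log2 change of 0.4, 72% at 0.58 and 98% at 1. Far fewer genes changed there than the 3180 called in these data, and the adjustment depends on that number. The percentages therefore do not give the recovery in these data. Within-group Pearson correlations of log2 values were 0.983 to 0.992, and no pair of samples shared more than 2 identical values among tested genes.

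The 10 genes, the 8 other lists (65 genes) and the 9 marker lists (64 genes) were chosen with earlier results of these data known. Nrdc matched as Nrd1. A further 2 genes of these lists and 1 motif are not reported here. Named genes were the 10, 9 partners given whatever their result, up to 2 genes that rose and 2 that fell per list by adjusted p, and the 5 of closest pattern. Blmh, H2-D1, Vamp1, Zbtb22, Psme2b, Cd68, Gzma and Sting1 were named after their values were seen. Alternatives were an adjusted p under 0.01, leaving out each sample, males alone, omitting the sex term, a filter on mean FPKM or none, a pseudocount of 0.1 or of 1, TPM, and scaling by median of ratios or by quantiles. The tested genes stayed the same except under the other filters. Promoter sequences are those of RefSeq on GRCm38.p6.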

Additional observations from a re-analysis of the deposited data

How the results depend on the processing

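The number of the 10 genes called, 6, all higher, was 2 at an adjusted p under 0.01, 2 with males only and 2 with no filter, and 2 to 7 when 1 sample was left out. Over all genes the count of 3180 became 512, 652 and 1056 in the same 3 settings and 647 to 3889 without 1 sample. The lowest counts came without control replicate 1 (653) or Lck-cre replicate 5 (647), where the sex term leaves 3 males against 3 males. TPM values moved the split of called genes from 1901 higher and 1279 lower to 1300 and 2067, and quantile normalization to 1709 and 1523. TPM also moved the median log2 change of all tested genes from 0.01 to -0.06. The calls of Psmb10 and Psme2 held in all 18 settings. Tap2 changed sign with TPM (-0.04), with quantile normalization (-0.0089) and without control replicate 2 (-0.006), ranged from -0.006 to 0.09 when 1 sample was left out, and was never called. Of the 6 ratios, 0 passed by the permutation test in every setting, while 1 had an unadjusted p under 0.05 with all samples; with 3 samples in a group the smallest p is 0.0571 or, with males only, 0.1, so those settings could not pass, and with all samples none could unless at least 4 ratios separated fully. FPKM values summed to more in every Lck-cre sample than in any control. TPM has the same sum in every sample, so changes from TPM lack this offset and those from FPKM include it. What made the FPKM sums higher was not tested, nor was the cause of the other shifts. No paired analysis was possible because the groups share no replicate numbers.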
